A study of Zea mays with 48 samples.

Results

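The maize genes described here were high in leaves of chilled shoots and low in warm leaves of plants whose roots alone were chilled. They were 16 of the 23290 nuclear gene models listed in at least 1 of the 4 deposited tissue tables. They were selected by a rule on leaf and root levels in CPM. These are the deposited read counts scaled to an effective library size, the total count times a factor for each library. The rule used the log2 ratio of group means after adding 1 CPM. It asked for a log2 change of at least 2 in the leaf under whole-plant and under shoot-only chilling, of at most -1.5 in the leaf under root-only chilling, and below 1 in the root under root-only chilling. The first condition alone was met by 479 genes, of which 24 also met the leaf condition for root-only chilling. The limit on the root removed 8 of these. The 16 genes are Zm00001d002287, Zm00001d003925, Zm00001d006179, Zm00001d006511, Zm00001d010079, Zm00001d011183, Zm00001d018342, Zm00001d019207, Zm00001d029258, Zm00001d029970, Zm00001d034017, Zm00001d038029, Zm00001d043196, Zm00001d046234, Zm00001d047077 and Zm00001d049081.

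All plants were of the inbred line B73, and chilling began at the stage of 3 leaves. Before treatment all grew at 26 °C with 14 h of light and 10 h of dark. Control plants kept shoot and root at 26 °C. Whole-plant chilling put both at 4 °C for 24 h, shoot-only chilling put the shoot at 4 °C over a root at 26 °C, and root-only chilling kept the shoot at 26 °C over a root at 0 °C, also for 24 h. Leaf, top crown, bottom crown and root were each sampled in 3 replicates per condition, giving 48 libraries. The root was colder under root-only than under whole-plant chilling, and the labels do not give the temperature at the crown, the junction of shoot and root. Whether a replicate was 1 plant or several pooled is not stated, so the tests measure the spread between these samples.

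Maize comes from warm climates and is sensitive to chilling. In leaves, cold slows photosynthesis and growth and changes the transcripts of many stress genes. Cold roots take up less water and fewer nutrients, and signals that travel through the vascular tissue join root and shoot. The name table used here matched 0 of the 16 genes, so no role is given for any of them and the tissue labels could not be read against marker genes.

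Total counts ran from 3449880 in control leaf replicate 2 to 8633854 in bottom crown replicate 1 of whole-plant chilling. Whole-plant root replicate 1 stood apart from its mates, with 21358 genes detected against 23317 and 23332. The libraries were of bulk tissue, in which fewer cells of a type and less RNA per cell cannot be told apart.

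In the leaf, all 6 libraries of chilled shoots lay above all 3 control libraries for each of the 16 genes, and all 3 root-only libraries lay below them. The rule chose the genes on these values, so they are a description without a test. Its thresholds in effect also fixed the lack of overlap, so nothing is read from that count. Whole-plant means were 5.02 to 47.7 times the control mean, with a median of 7.11 times, and shoot-only means were 4.54 to 45.7 times the control mean, with a median of 6.45 times. Control means were 3.49 to 48.0 times the root-only mean over the 15 genes with reads in all root-only leaves, with a median of 5.99 times.

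Zm00001d011183 had the widest span between whole-plant and root-only leaves on the log2 scale with 1 CPM added, 7.64, and the highest level in chilled shoots. Its control leaves held 26.7, 8.48 and 23.4 CPM. Its whole-plant leaves held 626.9, 1172 and 999 CPM, and its shoot-only leaves held 537.4, 1136 and 1004 CPM. Its root-only leaves held 5.69, 3.32 and 2.01 CPM. The mean thus went from 19.5 ± 9.73 CPM (SD, n = 3) in control to 932.8 ± 279 CPM (SD, n = 3) under whole-plant chilling and 3.67 ± 1.86 CPM (SD, n = 3) under root-only chilling. In control the libraries differed among themselves, with replicate 2 the lowest.

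Zm00001d047077 was the second highest gene in chilled shoots. Control leaves held 13.8, 52.9 and 20.7 CPM, and replicate 2 was here the highest. Whole-plant leaves held 668.1, 1380 and 675.6 CPM, shoot-only leaves 622.9, 712.4 and 837.6 CPM, and root-only leaves 7.54, 6.38 and 6.19 CPM. The root-only libraries lay within a narrow range and the control libraries did not.

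Zm00001d049081 and Zm00001d043196 had the lowest root-only leaves relative to control among the genes with counts in all 3 of those libraries. Zm00001d049081 stood at 21.0, 18.7 and 18.5 CPM in control leaves and at 0.464, 0.128 and 0.619 CPM in root-only leaves, which rest on 4, 1 and 4 reads. Its chilled shoots reached 76.3, 131.4 and 83.7 CPM in whole-plant and 87.2, 103.8 and 125.4 CPM in shoot-only plants. Control leaves were close to each other for this gene, and the low end is limited by depth.
For Zm00001d043196 the control leaves held 19.5, 39.6 and 21.8 CPM and the root-only leaves 1.63, 1.53 and 0.774 CPM. Whole-plant leaves held 149.4, 162.0 and 154.0 CPM, against 189.4, 211.5 and 145.8 CPM in shoot-only leaves. The chilled groups overlapped each other and neither overlapped the control.

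Zm00001d006511 and Zm00001d019207 completed the 4 highest levels in chilled shoots, with means over both conditions of 277.5 and 251.4 CPM. Zm00001d006511 had the highest control level of the 16 genes in the leaf, at 58.8, 38.4 and 29.0 CPM, and stood at 4.88, 2.55 and 3.56 CPM in root-only leaves. Its whole-plant leaves held 304.6, 363.8 and 220.2 CPM and its shoot-only leaves 225.8, 254.7 and 296.0 CPM. Zm00001d019207 went from 8.85, 23.2 and 7.43 CPM in control leaves to 234.0, 314.7 and 247.0 CPM in whole-plant and 253.1, 177.8 and 281.9 CPM in shoot-only leaves, and stood at 4.53, 3.19 and 3.25 CPM in root-only leaves. In that gene control replicate 2 again lay above the other 2 control libraries. At the low end, Zm00001d002287 was at 0 in 2 of the 3 root-only leaf libraries and had 2 reads in the third, so no fold is given for it.

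**Figure D1:**
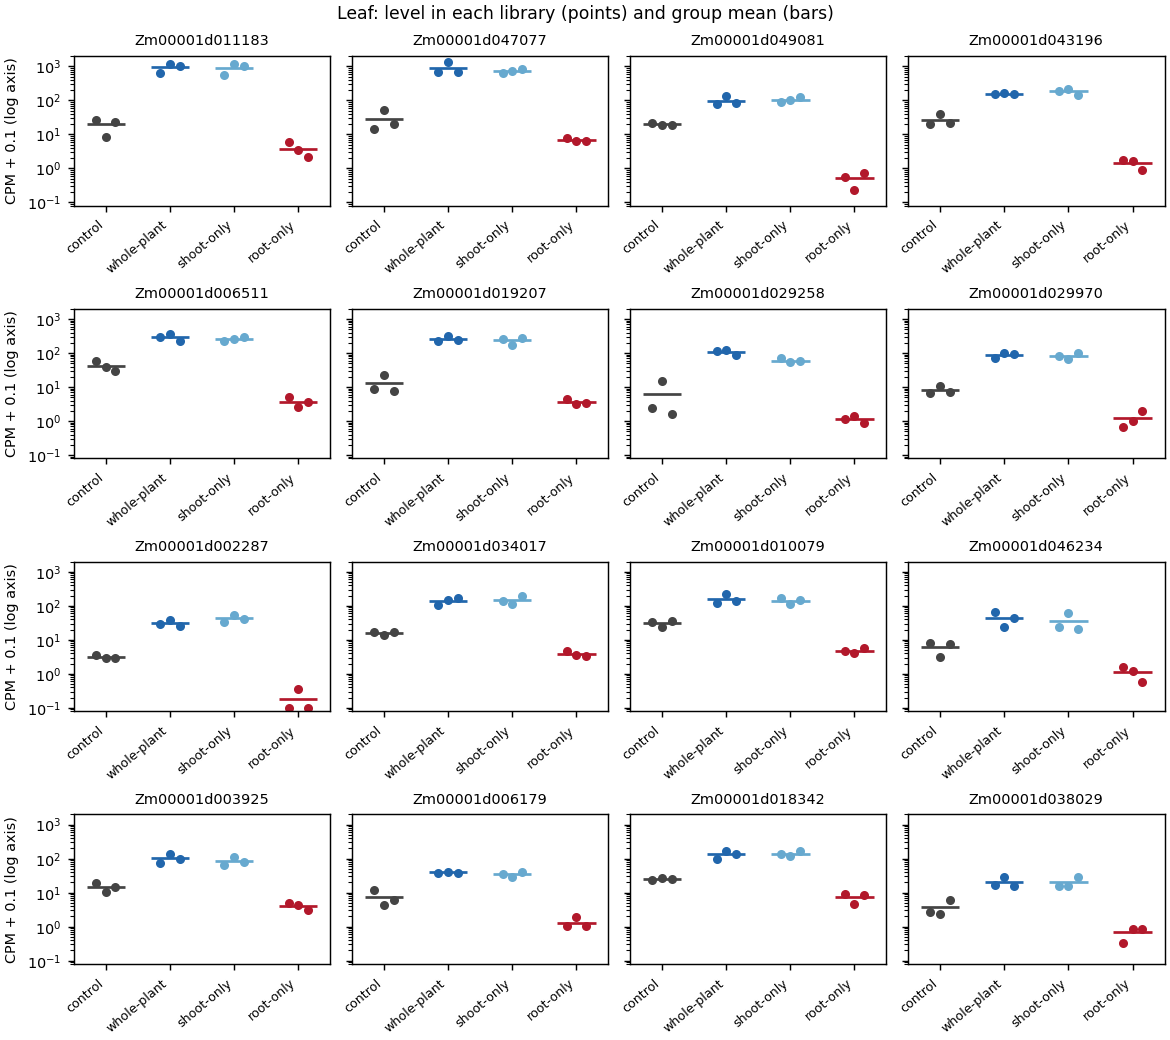
Leaf level of each of the 16 genes in CPM with 0.1 added, on a log axis, for control, whole-plant, shoot-only and root-only plants; points are the 3 libraries of a group and bars the group mean. In every panel the 6 libraries of chilled shoots sit above the 3 control libraries and the 3 root-only libraries sit below them, which the choice of the genes in effect fixed.

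The thresholds cut through a continuous range in the root-only leaf, where 322 genes failed that condition alone. Zm00001d038029 lay just inside at -1.55 and Zm00001d049242 just outside at -1.49. In the whole-plant leaf, Zm00001d038029 lay inside at 2.20 and Zm00001d002905 outside at 1.80. In the shoot-only leaf, Zm00001d006179 lay inside at 2.12, while the nearest gene outside, Zm00001d049554, stood at 0.69. In the root-only root, Zm00001d049081 lay inside at 0.94 and Zm00001d012527 outside at 1.01.

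The deposited CPM divide each count by an effective library size, whose factor on the total count was 1.18 to 1.43 in root-only leaves and 0.804 to 1.03 in the other leaf libraries. Values of every gene in root-only leaves are thus lower than on total counts. On total counts alone the rule chose 10 genes, all of them among the 16. Without control leaf replicate 2, the shallowest library, it chose 11, of which 10 were among the 16.

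Whole-plant and shoot-only leaves shared the shoot temperature and differed in the root, at 4 °C or 26 °C. The rule asked for a high level in both, so their likeness is in part set by the choice of genes and is described without a test. Whole-plant minus shoot-only changes ran from -0.46 to 0.84 on the log2 scale, with a median of 0.12.

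In control plants the 16 genes differed in the tissue where they were highest. The control mean was highest in the root for 7 genes, in the leaf for 4, in the bottom crown for 3 and in the top crown for 2. Zm00001d006511, Zm00001d010079, Zm00001d011183 and Zm00001d049081 were the 4 highest in the leaf. Zm00001d006511 showed the clearest gradient, from 42.1 CPM in leaf through 4.75 CPM in top crown and 0.763 CPM in bottom crown to 0, 0 and 1 reads in the root. At the other end, Zm00001d046234 had 6.26, 15.7, 35.2 and 146.9 CPM along the same axis. These are means of tables that the authors scaled separately for each tissue, so levels were not tested across tissues, and the rule used the leaf and root controls.

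**Figure D2:**
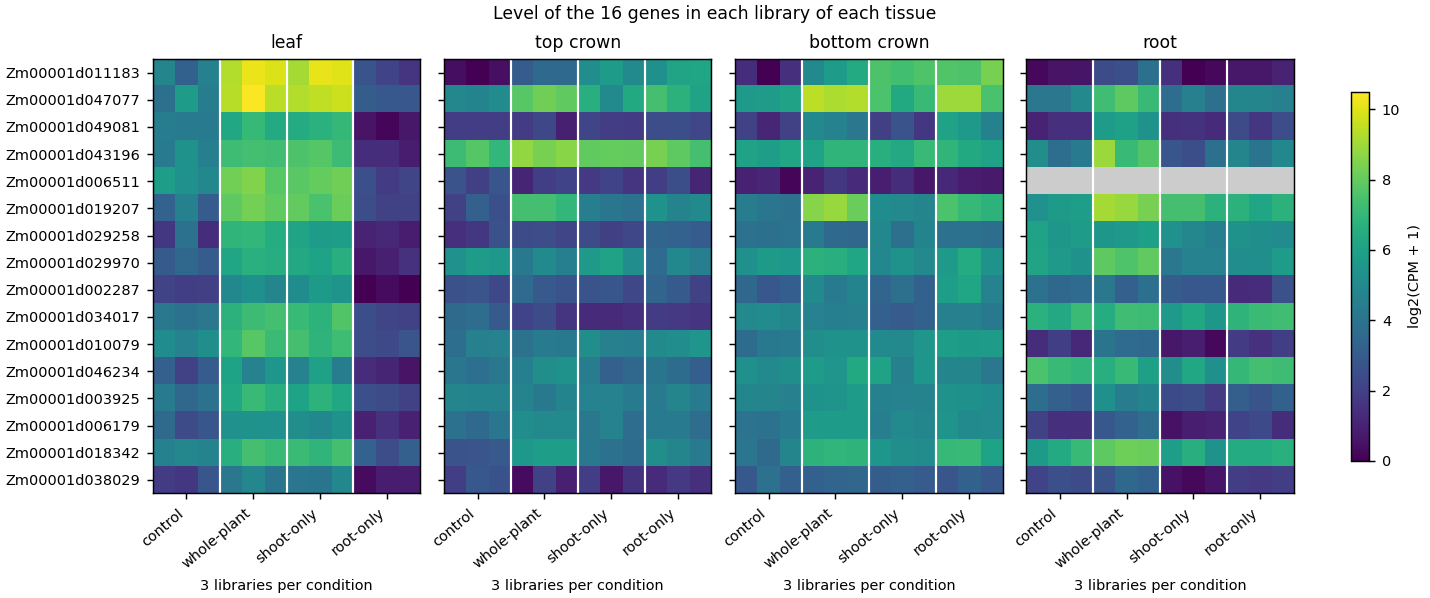
Level of each of the 16 genes as log2(CPM + 1) in the 12 libraries of each tissue, with 3 libraries per condition in the order control, whole-plant, shoot-only and root-only; grey marks a gene not in a deposited table. The leaf panel goes from bright to dark between chilled shoots and root-only plants in all genes, while the other panels differ from gene to gene.

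Whole-plant and shoot-only chilling differ in root temperature alone, and neither root entered the rule. At 4 °C the root had more of nearly all of them than at 26 °C under the same cold shoot. Of 15 genes tested, 14 were higher in whole-plant than in shoot-only roots by edgeR's quasi-likelihood test at a Benjamini-Hochberg adjusted p under 0.05, the rule for every call below, a share to be read against 26.8% of all 18831 genes tested, and 0 were lower against 24.4%. In either direction 51.2% of all genes were called. The median change was 3.41 on the log2 scale, against 0.01 for all genes. The range was 0.84 to 5.11, and the 1 gene not called was Zm00001d002287 at 0.95. Zm00001d006511, with 0 to 2 reads per root library, was not tested.

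Zm00001d043196 and Zm00001d049081 had the largest changes in this comparison. Zm00001d043196 held 489.8, 132.7 and 198.9 CPM in whole-plant roots and 5.92, 4.75 and 13.6 CPM in shoot-only roots. That is a log2 change of 5.11 ± 0.58 (SE; edgeR adjusted p = 9.1e-06), and 4.36 without the whole-plant library that stood apart, replicate 1. Zm00001d049081 held 53.6, 63.6 and 40.2 CPM in whole-plant roots and 1.63, 1.87 and 1.36 CPM in shoot-only roots, a log2 change of 5.03 ± 0.34 (SE; edgeR adjusted p = 7.0e-08). The groups were far apart in both genes. Without replicate 1 the number of genes called stayed at 14, all higher, against 25.9% of all genes.

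Zm00001d011183 passed the low-count filter of the root only through its whole-plant libraries, at 4.49, 4.86 and 13.7 CPM against 1.63, 0 and 0.170 CPM in shoot-only roots. Left out for that reason, 13 of 14 genes were higher, with a median of 3.15. With the condition on the root left out of the rule, an alternative added after the data were seen, 24 genes were chosen on the leaf alone, of which, again without Zm00001d011183, 21 of 22 tested were higher and 0 lower, with a median of 3.43. None of the other 22 passed the filter only through whole-plant or shoot-only roots.

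Comparisons with control roots are not independent of the rule, whose limit on root-only roots was set against the same control libraries and can favour genes with high control values. Whole-plant chilling raised 11 of 15 genes, against 14.9% of all genes, and lowered 0, against 14.4%. Calls in either direction made up 29.3% of all genes. For the 24 genes chosen on the leaf alone, 18 of 22 tested besides Zm00001d011183 were higher and 0 lower, with a median of 2.92. The median change of the 15 was 2.12, and 10 of 14 genes with a median of 1.87 remained when Zm00001d011183 was left out. Among genes with at least 10 CPM in a compared group, the largest rises were again those of Zm00001d049081, from 1.05, 1.69 and 1.63 CPM in control roots to the values above (log2 change 5.17 ± 0.34 SE; edgeR adjusted p = 1.1e-07), and of Zm00001d043196, from 35.0, 13.0 and 19.4 CPM (3.65 ± 0.53 SE; edgeR adjusted p = 0.00016). Without whole-plant replicate 1 the second change was 2.90. Both genes had control and chilled roots that did not overlap.

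In warm roots under a cold shoot, most of the genes that passed the test were lower than in control. Shoot-only chilling lowered 7 of 15 genes against 12.6% of all genes and raised 1 against 9.63%, with a median of -0.90. The 8 genes called compare with 22.3% of all genes in either direction. The limit on root-only roots bears on this comparison in the same way. Over the 24 genes chosen on the leaf alone, 9 of 23 tested were lower and 2 higher, with a median of -0.85. Zm00001d046234 fell from 184.9, 135.7 and 120.2 CPM to 35.5, 76.4 and 38.0 CPM (log2 change -1.56 ± 0.32 SE; edgeR adjusted p = 0.0034). Zm00001d029970 fell from 68.5, 50.0 and 40.3 CPM to 16.9, 23.9 and 24.0 CPM (-1.29 ± 0.25 SE; edgeR adjusted p = 0.0022). In both genes every shoot-only root lay below every control root.
The 1 gene that rose was Zm00001d019207, from 38.6, 51.4 and 57.0 CPM to 170.6, 169.4 and 107.4 CPM (1.6 ± 0.27 SE; edgeR adjusted p = 0.00087). Without shoot-only replicate 3 the genes called came to 5, with 1 higher against 6.24% of all genes and 4 lower against 7.34%. These comparisons and the whole-plant one share their control roots and are given side by side for that reason.

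Root-only roots, at 0 °C, had to change by less than 1 on the log2 scale upward for a gene to be chosen, and are described without a test. Changes ran from -1.84 in Zm00001d002287 to 0.94. Zm00001d049081 held 4.43, 2.15 and 4.58 CPM there and Zm00001d043196 held 26.7, 15.3 and 28.8 CPM. All 3 of these roots lay above the control roots in Zm00001d049081 and overlapped them in Zm00001d043196, and in both genes they lay below all whole-plant roots. The rule set the upper limit of these roots, while it set none on whole-plant roots.

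**Figure D3:**
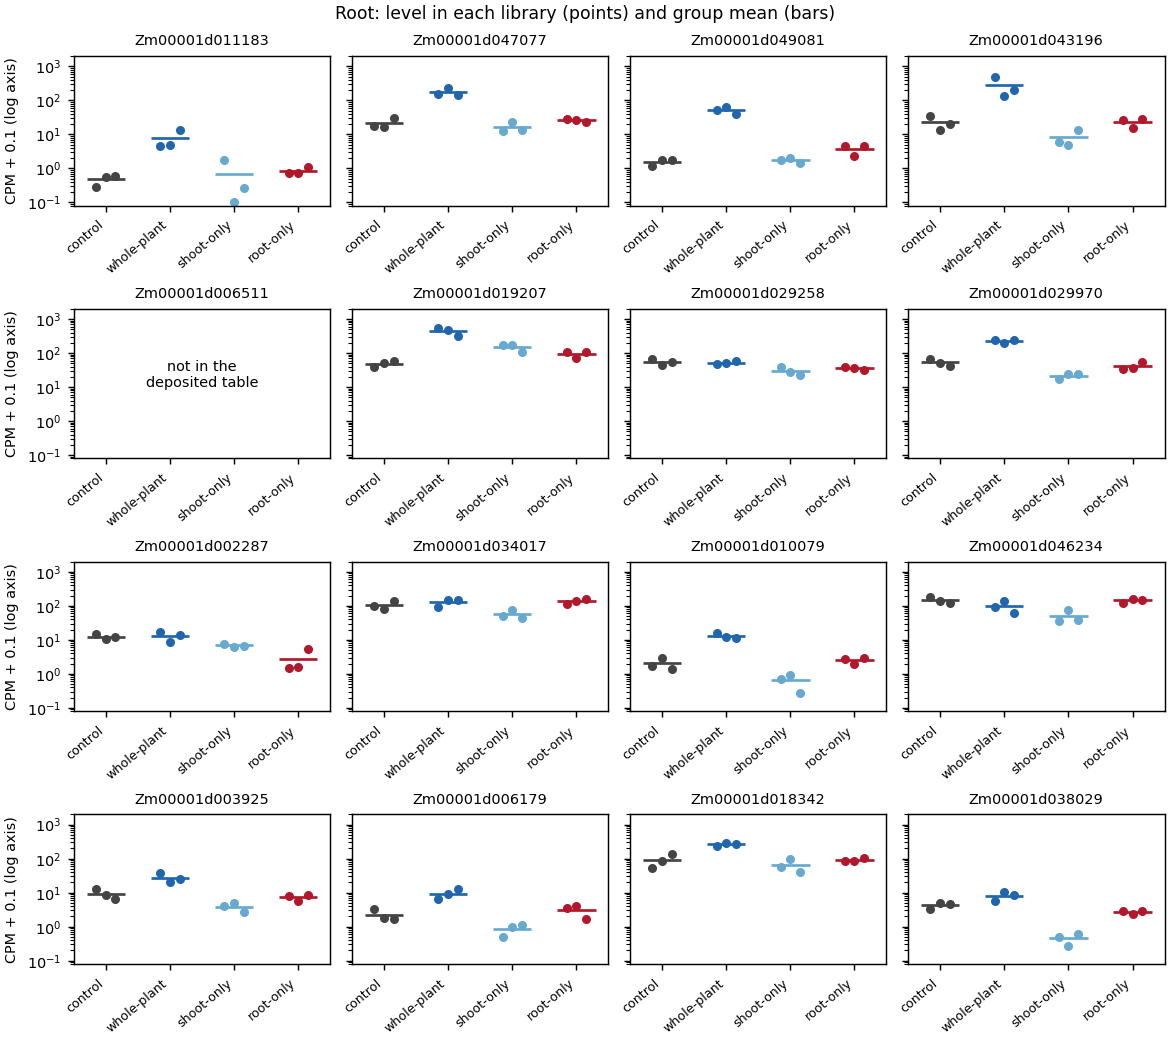
Root level of each of the 16 genes in CPM with 0.1 added, on a log axis, for control, whole-plant, shoot-only and root-only plants; points are the 3 libraries of a group and bars the group mean. Whole-plant roots lie above shoot-only roots in most panels, by 5.11 on the log2 scale in Zm00001d043196.

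No crown library entered the rule. In the bottom crown, where 15 of the genes were tested, whole-plant chilling raised 10 genes, against 17.6% of all 18779 genes, and lowered 0, against 17.4%. Of all genes, 35% were called in either direction. The median change was 1.24, against 0.00 for all genes. Zm00001d019207 rose from 20.02, 16.3 and 14.3 CPM to 388.3, 476.0 and 271.6 CPM (log2 change 4.48 ± 0.25 SE; edgeR adjusted p = 2.6e-08). Zm00001d011183 rose from 1.63, 0 and 1.75 CPM to 31.0, 55.1 and 84.1 CPM (5.63 ± 0.61 SE; edgeR adjusted p = 7.3e-05). Neither gene's groups overlapped.

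Root-only chilling, under which these genes were low in the leaf, raised 9 of 15 in the bottom crown, against 21.4% of all genes, and lowered 1, against 18%. The 10 genes called stand beside 39.4% of all genes in either direction. The median change was 1.16. Zm00001d011183 reached 199.4, 191.0 and 326.3 CPM (log2 change 7.74 ± 0.61 SE; edgeR adjusted p = 6.1e-06). Zm00001d049081, at under 1 CPM in root-only leaves, rose in the bottom crown from 3.25, 1.17 and 3.22 CPM to 65.4, 48.2 and 23.3 CPM (4.18 ± 0.49 SE; edgeR adjusted p = 5.0e-05). The root-only libraries of Zm00001d049081 differed widely among themselves, and all lay above the control. The 1 gene that fell, Zm00001d034017, went from 30.1, 32.4 and 27.0 CPM to 23.0, 22.6 and 18.0 CPM (-0.47 ± 0.15 SE; edgeR adjusted p = 0.021), a call lost without control replicate 1 or 2 or root-only replicate 3.

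Shoot-only chilling raised 6 of 15 genes in the bottom crown, against 14.4% of all genes, and lowered 1, against 11.8%, with a median change of 0.69. In either direction 26.2% of all genes were called here. Zm00001d011183 was again the extreme, at 187.1, 159.3 and 193.9 CPM (7.35 ± 0.61 SE; edgeR adjusted p = 3.3e-05). Zm00001d047077 went from 48.7, 55.3 and 65.9 CPM to 183.8, 81.3 and 135.7 CPM (1.27 ± 0.39 SE; edgeR adjusted p = 0.035). That call was lost without any 1 of the 6 libraries other than shoot-only replicate 2, with adjusted p from 0.066 to 0.12. Zm00001d034017 fell to 8.34, 7.16 and 8.64 CPM (-1.86 ± 0.16 SE; edgeR adjusted p = 3.3e-06), far below the control range. The number of genes called dropped from 7 to 4 without control replicate 2 or without shoot-only replicate 1. In those fits 9.99% and 10.3% of all genes were higher and 8.23% and 8.22% lower, also fewer than with all libraries.

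Compared directly, bottom crowns had less of most of the genes under shoot-only than under root-only chilling. Of 15 genes, 9 were lower, against 18.2% of all genes, and 1 was higher, against 15.9%. Calls in either direction came to 34.1% of all genes. The call of the 1 higher gene was lost without any 1 of shoot-only replicates 1 and 3 and root-only replicates 1 to 3. Without shoot-only replicate 2 there were 2 higher genes, against 15.4% of all genes. Zm00001d049081 held 2.95, 5.41 and 2.26 CPM under shoot-only chilling and 65.4, 48.2 and 23.3 CPM under root-only chilling (log2 change -3.63 ± 0.47 SE; edgeR adjusted p = 0.00016). Zm00001d002287 held 9.73, 13.5 and 8.64 CPM against 58.9, 71.5 and 24.5 CPM (-2.25 ± 0.37 SE; edgeR adjusted p = 0.00063). Both genes were thus higher under root-only chilling, the reverse of their order in the leaf, which the rule fixed. These conditions differ in both shoot and root temperature, and the part of each cannot be told apart.

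In the top crown all 16 genes were tested, and genes were called in both directions. Under each chilling the number lowered was near or below the share of all genes lowered, so nothing is read from it. Whole-plant chilling raised 7, against 16.8% of all 17706 genes, and lowered 3, against 19.5%, with a median change of 0.54 against -0.06 for all genes. The 10 genes called compare with 36.2% of all genes called in either direction. Zm00001d019207 rose from 3.19, 8.41 and 4.90 CPM to 169.0, 162.3 and 124.2 CPM (log2 change 4.75 ± 0.27 SE; edgeR adjusted p = 2.4e-09). Zm00001d018342 rose from 5.42, 5.84 and 6.59 CPM to 47.9, 55.9 and 58.4 CPM (3.14 ± 0.22 SE; edgeR adjusted p = 9.2e-09). In both genes every chilled library lay far above every control library.
Zm00001d034017 fell from 11.3, 12.5 and 6.93 CPM to 3.37, 4.21 and 1.98 CPM (-1.70 ± 0.31 SE; edgeR adjusted p = 0.00033). Zm00001d029970 fell from 38.4, 53.9 and 48.0 CPM to 17.8, 31.0 and 22.2 CPM (-1.01 ± 0.30 SE; edgeR adjusted p = 0.017), a call lost without control replicate 2 or 3 or whole-plant replicate 1 or 3, with adjusted p from 0.053 to 0.074. The number of genes lowered went from 3 to 1 without control replicate 3 or whole-plant replicate 1 or 3, while the number raised stayed between 6 and 8 without any 1 library. The share of all genes lowered was then 15.8%, 14.5% and 14.4%. The share raised was 13.3% to 15.8% over the fits that left out 1 library. With scaling by library size alone, which moved the median of all genes to -0.30, 6 of the 16 genes were higher, against 8.69% of all genes. Under that scaling 5 were lower, against 30.8%.

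Root-only chilling gave the same number of calls in the top crown, with 7 higher against 17.8% of all genes and 3 lower against 18.1%, and a median change of 0.50. The background in either direction was 35.9%. Leaving out 1 library gave 5 to 7 genes higher, with 5 without control replicate 1, against 14.5% to 15.9% of all genes. The number lowered was 2 without any 1 library other than control replicate 1, against 14.2% to 15.5% of all genes. Zm00001d011183 rose from 0.319, 0 and 0.338 CPM, that is 2, 0 and 2 reads, to 37.5, 69.4 and 72.0 CPM (log2 change 7.90 ± 0.47 SE; edgeR adjusted p = 2.6e-09). The size of a change from so few reads depends on how the fit treats low counts. Zm00001d019207 rose to 39.7, 25.2 and 30.4 CPM (2.53 ± 0.27 SE; edgeR adjusted p = 2.0e-06). Zm00001d034017 fell to 2.56, 2.38 and 2.04 CPM (-2.14 ± 0.32 SE; edgeR adjusted p = 4.3e-05), and Zm00001d029970 fell to 11.7, 28.5 and 21.3 CPM (-1.23 ± 0.30 SE; edgeR adjusted p = 0.006).

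Shoot-only chilling changed fewer, with 4 genes higher against 11.4% of all genes and 1 lower against 12.5%, and a median of 0.18. Fewer of all genes were called as well, 23.9% in either direction against 36.2% and 35.9% under whole-plant and root-only chilling. Leaving out 1 library gave 3 or 4 genes higher, against 7.42% to 10.2% of all genes. There were 2 lower without control replicate 1 or shoot-only replicate 1, against 9.5% and 9.6%. Zm00001d011183 rose to 34.5, 52.6 and 31.5 CPM (7.30 ± 0.48 SE; edgeR adjusted p = 1.4e-07) and Zm00001d019207 to 21.4, 16.5 and 14.5 CPM (1.64 ± 0.28 SE; edgeR adjusted p = 0.0007). Zm00001d034017 fell to 1.40, 1.37 and 1.63 CPM (-2.82 ± 0.35 SE; edgeR adjusted p = 2.5e-05). The 3 groups of chilled top crowns share their control libraries.

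Directly compared, shoot-only and root-only top crowns differed in 4 of the 16 genes, with 1 higher under shoot-only chilling against 10.9% of all genes and 3 lower against 12.3%. In either direction the background was 23.2%, close to the share of the 16 genes. Zm00001d029970 stood at 49.7, 65.8 and 34.6 CPM under shoot-only chilling (log2 change 1.29 ± 0.30 SE; edgeR adjusted p = 0.0067). Zm00001d018342 stood at 17.6, 13.9 and 12.1 CPM against 35.9, 26.1 and 19.7 CPM (-0.93 ± 0.21 SE; edgeR adjusted p = 0.003). For Zm00001d019207 the change was -0.89 ± 0.24 SE (edgeR adjusted p = 0.013), and it lost its call without shoot-only replicate 3 or root-only replicate 1.

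**Figure D4:**
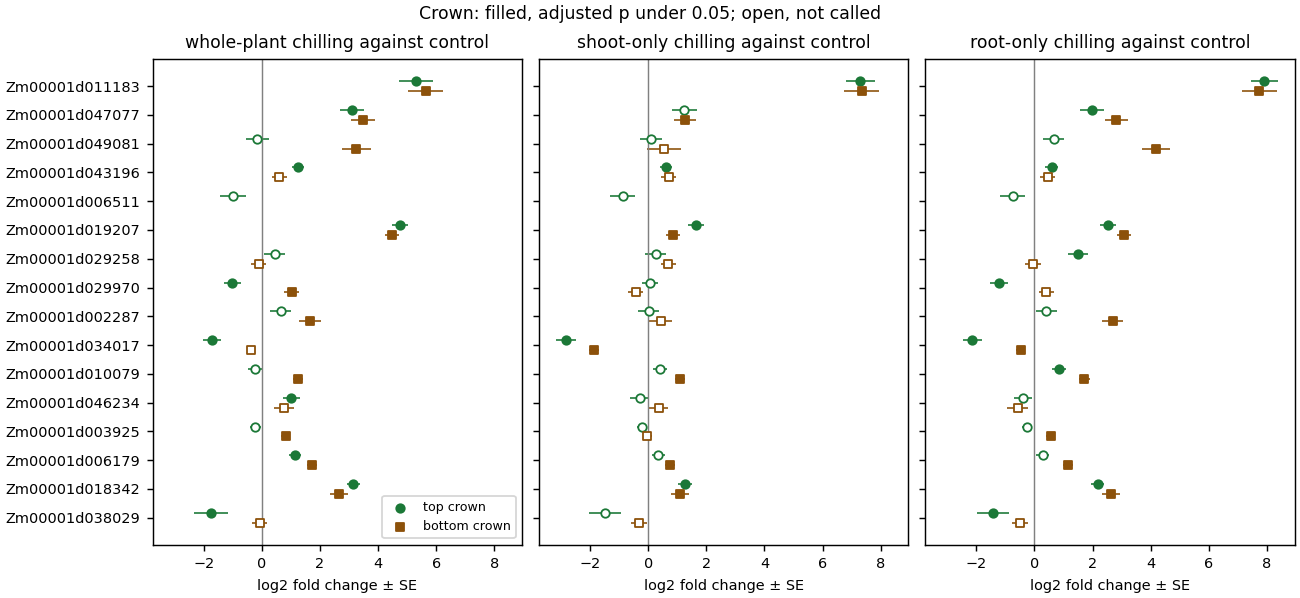
Log2 fold change against control with its standard error for each of the 16 genes in top crown (circles) and bottom crown (squares) under whole-plant, shoot-only and root-only chilling; filled symbols had an edgeR adjusted p under 0.05 and open ones did not. Zm00001d011183 lies between 5.30 and 7.90 in every panel, while Zm00001d049081 lies at 3.26 and 4.18 in the bottom crown under whole-plant and root-only chilling.

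Whether top and bottom crown responded differently was tested as an interaction over the 24 crown libraries. Under root-only chilling 4 of the 16 genes differed, against 3% of 19595 genes tested. The change was higher in the top crown than in the bottom crown for 1, against 1.12%, and lower for 3, against 1.87%. Under whole-plant chilling the top crown change was higher for 0, against 0.311%, and lower for 5, against 0.47%, or 0.781% in either direction. Zm00001d049081 differed under both, by -3.48 ± 0.64 SE (edgeR adjusted p = 0.0034) and -3.38 ± 0.67 SE (edgeR adjusted p = 0.017). It held 4.64, 4.75 and 3.71 CPM in root-only top crowns, all above its top crown control of 2.71, 2.75 and 2.70 CPM, and that change of 0.66 was not called. Under root-only chilling Zm00001d002287 also differed, by -2.24 ± 0.57 SE (edgeR adjusted p = 0.032), and Zm00001d029258 by 1.59 ± 0.43 SE (edgeR adjusted p = 0.040). Under whole-plant chilling Zm00001d029970 differed by -2.01 ± 0.43 SE (edgeR adjusted p = 0.025). These last 3 calls were lost in 8, 10 and 8 of 12 fits that left out 1 library, whereas Zm00001d049081 kept both of its calls in all of them. Zm00001d002287 lost its call without control replicate 1 or 2 or root-only replicate 2 or 3 of the top crown, and without control replicate 2 or 3 or root-only replicate 1 or 2 of the bottom crown. Zm00001d029258 kept its call only without control or root-only replicate 3 of the top crown. Zm00001d029970 lost its call without control replicate 2 or 3 or whole-plant replicate 1 or 3 of the top crown, and without control replicate 1 or 3 or whole-plant replicate 1 or 2 of the bottom crown. Under root-only chilling the count of 4 went to 2 without control replicate 1 or 2 of the top crown, control replicate 2 or 3 of the bottom crown, or root-only replicate 1 or 2 of the bottom crown. In those fits 0.624% to 0.795% of all genes were higher and 1.02% to 1.37% lower. Under whole-plant chilling the count of 5 went to between 1 and 3 without any 1 library other than whole-plant replicate 2 of the top crown. In those fits 0.12% to 0.314% of all genes were higher and 0.155% to 0.499% lower. Under shoot-only chilling 0 genes were called by edgeR and 0 by DESeq2, against 0.097% of all genes by edgeR (0.0204% higher and 0.0766% lower), with 2 of the 16 at an unadjusted p under 0.05 and 1736 of all genes.

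**Figure D5:**
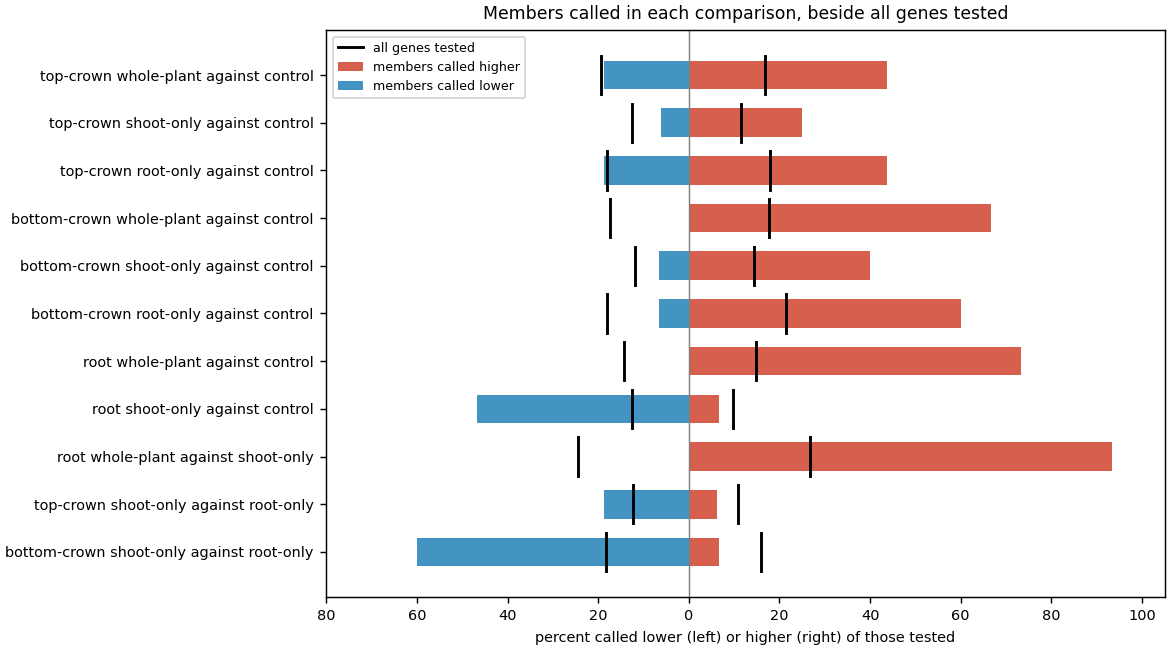
Percent of the tested members called higher (right) or lower (left) by edgeR in each comparison, with black marks for the percent of all genes tested in the same direction. The widest gap is in the root between whole-plant and shoot-only chilling, where 14 of 15 members were higher against 26.8% of all genes. Both bars that involve whole-plant roots count Zm00001d011183, which passed the low-count filter only through those libraries. Without it 13 of 14 members were higher in this comparison, and 10 of 14 in whole-plant against control roots.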

How the data were processed

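RNA of leaf, top crown, bottom crown and root of B73 maize was extracted with Trizol and made into QuantSeq 3′ mRNA libraries, forward version, sequenced on an Illumina NextSeq500, per the labels' protocols. The kit reads near the 3′ end of a transcript, so counts do not scale with its length. STAR and edgeR are named without versions, per the submitters' processing notes. Not given in the sources used here are the genome build, how reads were counted and on which strand, and whether molecular identifiers were used. Levels of genes with an overlapping neighbour or a near-identical copy are therefore uncertain.

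Every test started from the raw counts, which the authors deposited library by library over 46430 identifiers. For each tissue there is also a deposited table of CPM, a scaled signal whose column sums differ between libraries. Each column was the raw count times 1 constant, within a relative deviation of 5e-09. These deposited values gave the members and the levels printed here. A gene absent from a table was taken as 0 for the rule.

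Tests used edgeR 4.0.16 in R 4.3.3, with robust quasi-likelihood fits, TMM scaling, filterByExpr over conditions and Benjamini-Hochberg adjustment over all genes tested, called under 0.05. Each tissue was fitted with its 12 libraries, and the crown interactions with 24. The steps were tested on simulated data. DESeq2 1.42.0, total-count scaling, no filter, the compared groups alone, a replicate block and leaving out each library were the alternatives. Leaf comparisons and the root-only root were used by the rule and are described without a test, also that of whole-plant with shoot-only leaves, for which a test was planned.

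The text names the 4 members with the widest leaf span and the 4 highest in chilled shoots, and for each comparison up to 2 called higher and 2 called lower, with the largest changes among those with at least 10 CPM in a compared group and no overlap. It also names the genes next to each threshold. Members outside this rule are named after their values were seen. The members and lists were chosen with earlier results of these data known. The name table, of another assembly, matched 0 of 44146 nuclear gene models, so marker and pathway lists and sequences were not used.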

Additional observations from a re-analysis of the deposited data

Results flagged for a closer look

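Top and bottom crown differed in their response in 9 cases by the interaction test, given as the top crown change minus the bottom crown change on the log2 scale. Under root-only chilling the differences were -2.24 in Zm00001d002287, 1.59 in Zm00001d029258, -1.62 in Zm00001d034017 and -3.48 in Zm00001d049081. Under whole-plant chilling they were -1.02 in Zm00001d003925, -1.45 in Zm00001d010079, -2.01 in Zm00001d029970, -1.31 in Zm00001d034017 and -3.38 in Zm00001d049081. Both calls of Zm00001d049081 and the root-only call of Zm00001d034017 held in all 12 fits that left out 1 library. Of 12 such fits, the call was lost in 8 for Zm00001d002287, 10 for Zm00001d029258, 8 for Zm00001d003925, 6 for Zm00001d010079, 8 for Zm00001d029970 and 10 for Zm00001d034017 under whole-plant chilling. Of all 19595 genes tested, 3% were called under root-only and 0.781% under whole-plant chilling.

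Some members moved opposite ways in 2 tissues under the same chilling, with all 3 chilled libraries on one side of all 3 controls in each tissue. These differences were not tested. The leaf direction, and in effect its lack of overlap, was fixed by their choice, and the rule also limited rises in root-only roots, so nothing is read from the counts that include the leaf or root-only roots. The share of all genes in both deposited tables that did the same stands behind each count. Under whole-plant chilling there were 2 between leaf and top crown, Zm00001d029970 and Zm00001d034017 (3.2% of all genes), 1 between leaf and bottom crown, Zm00001d034017 (2.28%), and 1 between top crown and root, Zm00001d029970 (2.89%). Under shoot-only chilling there were 9 between leaf and root (8.02% of all genes), 3 between leaf and top crown (4.35%), 1 between leaf and bottom crown (4.83%) and 2 between bottom crown and root, Zm00001d006179 and Zm00001d010079 (9.75%). Under root-only chilling there were 7 between leaf and top crown (10.6% of all genes), 9 between leaf and bottom crown (12.7%) and 3 between leaf and root, Zm00001d011183, Zm00001d019207 and Zm00001d049081 (7.1%). There was also 1 between top crown and root, Zm00001d029258 (4.84%), and 1 between bottom crown and root, Zm00001d002287 (5.24%).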

How the results depend on the processing

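The number of genes the rule chose depended on its settings. It was 9 with 2 CPM added and 22, of which 15 among the 16, with 0.5 CPM added. It was 10 on total counts alone, 18 with TMM factors computed here, 50 with leaf thresholds of 1.5 and -1 and 3 with thresholds of 2.5 and -2. Leaving out 1 leaf library gave 11 to 20 genes. Of 193 counts under alternatives, 167 were within 1.5 times the value reported. Chosen without the condition on the root, an alternative added after seeing the data, 24 genes gave 19 calls for whole-plant root against control, 11 for shoot-only root and 22 between these roots, with Zm00001d011183 included and more genes counted. Leaving out 1 library gave 4 to 9 genes for shoot-only bottom crown, 5 to 8 for shoot-only root, 2 to 5 for the crown difference under root-only chilling and 1 to 5 for that under whole-plant chilling. Of all genes, 9.35% to 13.7% were then higher and 7.39% to 11.4% lower in shoot-only bottom crown. In shoot-only root these shares were 5.37% to 8.48% and 7.32% to 11.2%. They were 0.624% to 1.31% and 1.02% to 2.27% for the crown difference under root-only chilling. Under whole-plant chilling they were 0.12% to 0.364% and 0.155% to 0.544%. The cause was not tested. The 36 named results kept call and direction under 380 of 426 alternatives, lost the call in 46 and reversed in 0. Zm00001d047077 in the shoot-only bottom crown had an adjusted p of 0.051 on total counts alone and 0.094 without a filter. Zm00001d002287 in the crown difference under root-only chilling had 0.053 and 0.082, and 0.079 with only the compared groups. Zm00001d029970 in that under whole-plant chilling had 0.060 without a filter.

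Libraries with the same replicate number did not all deviate together. Same-number correlations over 0.1 were found in 7 of 18 pairs in leaf, 14 in root, 8 in top crown and 9 in bottom crown. Among pairs of different number they were found in 1, 5, 9 and 2 of 36, in the same order of tissues. In root the median correlation was 0.16 for the same number and -0.07 for different numbers. In that order, 9, 11, 8 and 9 of 12 libraries were closest to their own number, a hint from the data and not from the design. With the replicate block the calls numbered 10, 5 and 9 for whole-plant, shoot-only and root-only top crown. Of these, 7, 4 and 7 were higher, against 16.8%, 11.5% and 17.6% of all genes, and the rest lower, against 19.1%, 12.2% and 17.9%. For bottom crown they numbered 10, 8 and 10. Of those, 10, 7 and 9 were higher, against 17.8%, 14.6% and 21.7%, and the rest lower, against 17.6%, 11.9% and 18.2%. With the block the calls were 11 and 9 for whole-plant and shoot-only root and 15 between these roots. Of these, 11, 1 and 15 were higher, against 17%, 12.5% and 28.1% of all genes, and the rest lower, against 17.1%, 15.2% and 26.8%. Direct comparisons in top and bottom crown gave 5 and 10. There 1 and 1 were higher, against 11% and 15.7%, and the rest lower, against 12.2% and 18.5%. The crown differences with the block numbered 5, 0 and 5 under root-only, shoot-only and whole-plant chilling. Of these, 1, 0 and 0 were higher in the top crown, against 1.4%, 0.0306% and 0.429% of all genes. The rest were lower, against 2.12%, 0.153% and 0.633%. All counts of calls among the 16 genes were within 1.5 times the count without the block.

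Alternatives planned for whole-plant against shoot-only leaves are not given, since that comparison is described without a test. Depth limited the lowest values, such as root-only leaf counts of 4, 1 and 4 reads in Zm00001d049081.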
